A study of Homo sapiens with 6 samples.

Results

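The 4 human HOX clusters were examined in lists of open chromatin sites from ventricular-like cardiomyocytes. Members were all ATAC-seq peaks whose midpoint lay in 1 of 4 fixed windows on hg19: HOXA at 27.1 to 27.3 Mb of chromosome 7, HOXB at 46.58 to 46.83 Mb of chromosome 17, HOXC at 54.3 to 54.47 Mb of chromosome 12 and HOXD at 176.93 to 177.08 Mb of chromosome 2. The windows span 770 kb together and hold 38 named HOX genes: 10 of HOXA, 10 of HOXB, 9 of HOXC and 9 of HOXD. Peaks of the 6 libraries that shared at least 1 bp were merged, which gave 97 sites in the clusters of 157560 in the whole genome.

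H9 cells, an established embryonic stem cell line, had been differentiated with a kit for ventricular cardiomyocytes and were taken at day 15. There were 3 control libraries and 3 in which ZNF436, which encodes a zinc finger protein of the KRAB class, was knocked down. All 6 libraries shared the cell line, the kit and the day, and the labels give the replicates as independent differentiations. How the knockdown was made is not given in the sources used here, and its extent was not checked. ATAC-seq marks open DNA by cutting it with the Tn5 transposase. The lists held 50719 to 68342 peaks in control and 87871 to 115864 in knockdown, a ratio of means of 1.773, and the read depth behind them is unknown. Longer lists by themselves give more peaks in any window, so the main comparisons of peak number are also given for lists cut to the 50719 peaks of highest score. This kept 43.8% to 57.7% of the knockdown lists and 74.2% to 100% of the control lists. The cell type was not checked against its marker genes, because no hg19 annotation was used here.

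HOX genes encode homeodomain transcription factors that give cells their position along the head-to-tail axis of the embryo. Within a cluster the genes lie in the order in which they are used: low paralog numbers act early and towards the head (anterior), high numbers late and towards the tail (posterior). In embryonic stem cells the clusters are held silent by Polycomb proteins, and in the embryonic heart the anterior HOXA and HOXB genes are known from progenitors that respond to retinoic acid. Each window was cut in its middle into sides of 75 to 125 kb, and the side towards the low paralog numbers was called anterior. A side is thus a stretch of a fixed window, not a set of genes, and may reach past the last HOX gene. The direction was taken from the order of genes in the RefSeq table of GRCh38.p14, in which all 38 members were found by symbol. It runs from HOXA2 to HOXA13 and from HOXB1 to HOXB13 with rising coordinates, and from HOXC4 to HOXC13 and from HOXD1 to HOXD13 with falling ones. The same table has EVX1 and EVX2, 2 even-skipped type homeobox genes, as the next coding genes past HOXA13 and HOXD13. Its coordinates are of another build, so no peak was assigned to a single gene.

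HOXB was the cluster richest in open chromatin and HOXC the poorest. In control, HOXB held 6.0 ± 2.62 peaks per 100 kb, HOXD 2.89 ± 0.77, HOXA 2.17 ± 0.764 and HOXC 0.98 ± 0.899 (± SD, 3 libraries per group). HOXB was the densest of the 4 in each of the 6 libraries, while HOXA and HOXD differed by less than their spread in control. Peaks covered 1.47 ± 0.608% of the HOXB window in control and 0.227 ± 0.236% of the HOXC window (± SD, 3 libraries per group). Set against all 250 kb tiles of the genome with a peak in any library, HOXB had more peaks than 83.9% to 96.2% of them, depending on the library. HOXA had more than 52.7% to 85.0% of the 200 kb tiles and HOXD more than 62.1% to 83.8% of the 150 kb tiles, so both stood above the middle of the genome in each library. HOXC had more than 0% to 51.4% of the 170 kb tiles, the 0% being control replicate 2, in which no peak was called there.

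All 4 clusters held more peaks on average in knockdown than in control, as most of the genome did. HOXA held 6, 3 and 4 peaks in control replicates 1, 2 and 3 and 16, 11 and 6 in the knockdown replicates. Its groups touched, since control replicate 1 and knockdown replicate 3 both had 6. HOXB held 14, 9 and 22 peaks in control and 26, 24 and 25 in knockdown. Control replicate 3 came within 2 peaks of the lowest knockdown library, and the control libraries varied far more among themselves than the knockdown libraries did. HOXC held 2, 0 and 3 peaks in control and 6, 5 and 4 in knockdown, a ratio of 3. Leaving out control replicate 2 gave 2, and leaving out control replicate 3 gave 5. HOXD held 3, 5 and 5 peaks in control and 12, 10 and 8 in knockdown. The knockdown libraries lay above all control libraries in 3 of the 4 clusters (HOXB, HOXC and HOXD) and below them in 0. Of the 200 kb windows of the genome with a mean of at least 2 peaks, 58.1% lay above and 0.247% below. The clusters themselves span 150 to 250 kb, so the lengths compared are not all alike. Separation of this kind was common, so it does not set the HOX clusters apart.

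**Figure D1:**
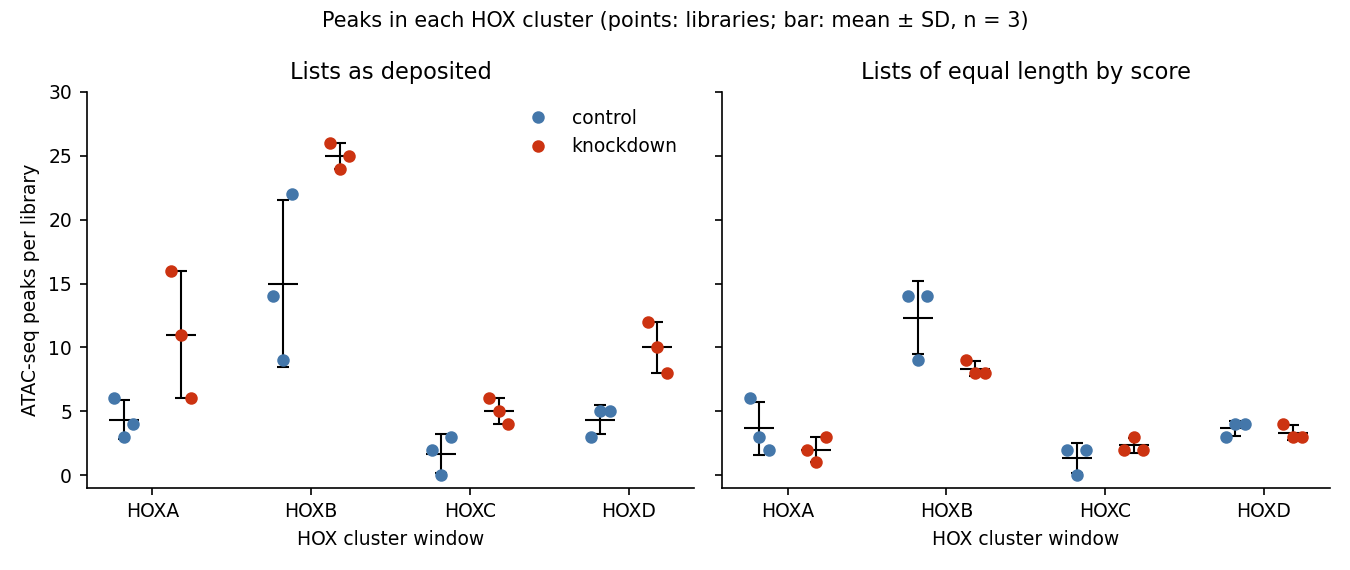
Peaks per library (y axis) in each HOX cluster window (x axis), for the lists as deposited (left) and cut to equal length by score (right). Points are libraries, and the bars give the mean ± SD of 3. On the left all 4 knockdown means are higher, from 1.67 times in HOXB to 3 times in HOXC, while on the right only that of HOXC is.

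Summed over the clusters, the control libraries held 25, 17 and 34 peaks and the knockdown libraries 60, 50 and 43. The ratio of means was 2.01, against 1.773 for the whole lists (25.3 ± 8.5 against 51 ± 8.54, ± SD over 3 libraries per group; two-sided p = 0.1 by exact permutation). No p below 0.1 can be reached with 3 libraries per group. The bases under peaks numbered 5693, 4749 and 9265 in control and 18272, 14313 and 14099 in knockdown, a ratio of 2.37 (two-sided p = 0.1 by exact permutation). The highest control library, replicate 3, thus covered 9265 bp against 14099 bp in the lowest knockdown library. Per 10000 peaks of its own list, a library held 4.36 ± 1.03 HOX peaks in control and 4.98 ± 0.168 in knockdown (± SD over 3 libraries per group; two-sided p = 0.6 by exact permutation). Control replicate 2 was low on this scale, with 3.17, and the other 5 libraries lay between 4.88 and 5.18.

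With lists of equal length the direction turned. The control libraries then held 25, 16 and 22 HOX peaks and the knockdown libraries 17, 15 and 16, a ratio of 0.762 (two-sided p = 0.3 by exact permutation). By cluster the ratio was 0.545 in HOXA, 0.676 in HOXB, 0.909 in HOXD and 1.75 in HOXC. The bases covered hardly differed, with a ratio of 1.06 (two-sided p = 0.7 by exact permutation). None of the 3 clusters with a mean of at least 2 peaks was apart between the groups in these lists, where 9.25% of 200 kb windows were higher in knockdown and 7.26% lower. Of the HOX peaks in knockdown, 48 of 153 remained after the cut, which removes peaks of low score and more of them from longer lists, beside 63 of 76 in control.

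The share of the list that fell in each cluster did not pass the test in any of them. A limma fit took the clusters, of 150 to 250 kb, with the 200 kb windows of the rest of the genome, 10126 rows in all. Of these, 3.99% were called higher in knockdown and 5.16% lower (Benjamini-Hochberg adjusted p under 0.05). None of the 4 clusters was called, and 0 of 4 had an unadjusted p under 0.05. The log2 change of share was 0.90 ± 0.54 (SE; limma adjusted p = 0.288) for HOXC, 0.37 ± 0.30 for HOXA, 0.30 ± 0.22 for HOXD and -0.02 ± 0.21 for HOXB. The value of HOXC rested on control replicate 2, the library with no peak there: without it the change was 0.094. In covered bases, with that library kept, it was 0.035. That setting added 0.5 kb to every library, beside 354, 0 and 802 bp covered in control, so it does not show what control replicate 2 contributed. The change of HOXA ranged from 0.15 to 0.69 and that of HOXD from 0.17 to 0.46 when 1 library was left out. Over all windows the median change was 0.02. Without scaling to the list total that median was 0.85, 6216 windows were called higher and 28 lower, and all 4 clusters were among those higher, as were 61.4% of windows. In counts simulated for knockdown against control, with 9856 windows of 200 kb fitted, limma found 3% of the 2-fold changes and 32% of the 3-fold changes, and called 0% where nothing had been changed. A 2-fold change was thus mostly missed in the simulation. It changed 200 windows, fewer than the 404 called higher and 522 called lower in the data. For this reason it does not give the rate at which a change of 1 cluster would be missed in the data.

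**Figure D2:**
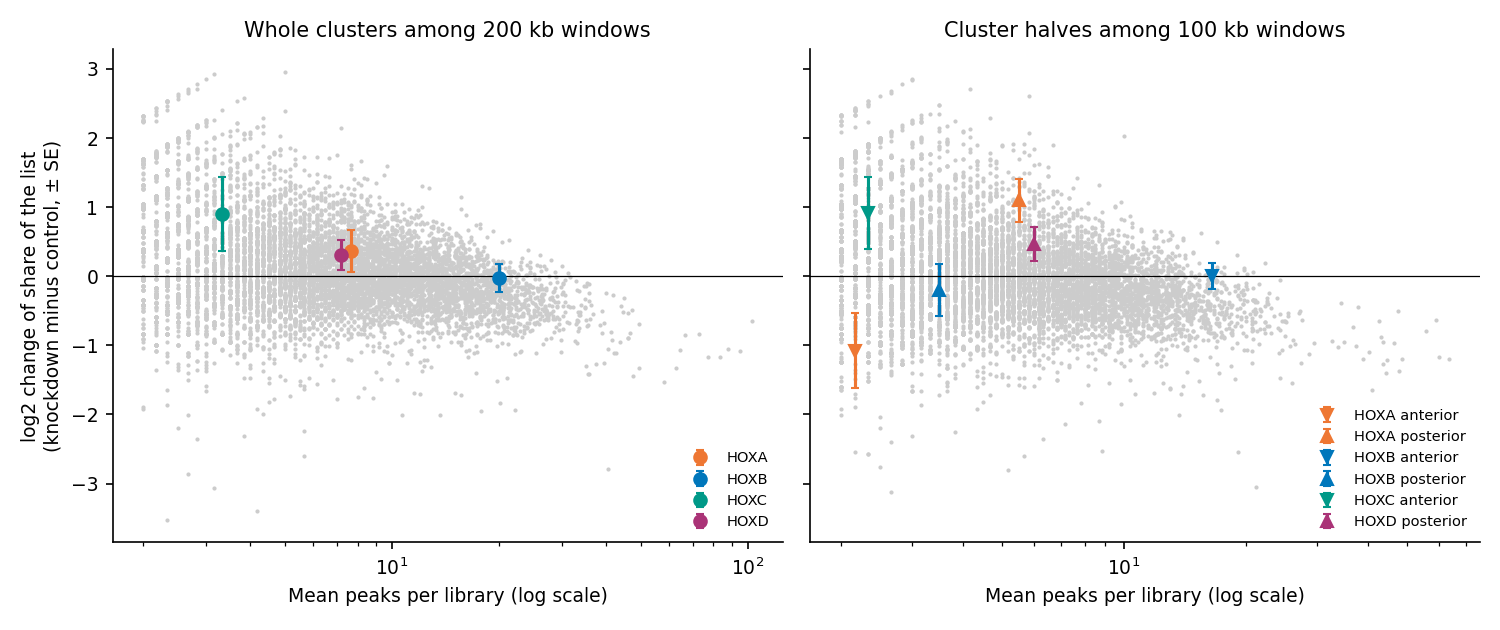
Change of the share of the list (y axis, log2, knockdown minus control, ± SE) against mean peaks per library (x axis, log scale) for the 4 clusters (left) and the 6 cluster sides with a mean of at least 2 peaks (right). Grey points are the 200 kb (left) and 100 kb (right) windows of the rest of the genome. The clusters sit within the grey cloud, and posterior HOXA stands at 1.10.

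The peaks added in knockdown lay on different sides in different clusters. On the posterior side of HOXA the control libraries held 2, 1 and 3 peaks and the knockdown libraries 12, 10 and 5. On its anterior side they held 4, 2 and 1 against 4, 1 and 1. With lists of equal length the posterior side of HOXA held 1.33 ± 0.577 peaks in control and 1.67 ± 0.577 in knockdown (± SD, 3 libraries per group). Its anterior side then held 2.33 ± 1.53 peaks in control and 0.333 ± 0.577 in knockdown (± SD, 3 libraries per group). In the lists as deposited, the difference in HOXA lay on its HOXA13 side, and its anterior side held as few peaks in both groups. Much of it fell in the last 50 kb of the window, with 1, 0 and 0 peaks in control and 6, 6 and 3 in knockdown. Whether that stretch lies past the HOX genes was not analysed here. HOXB differed on its anterior side instead, with 12, 8 and 16 anterior peaks in control and 22, 20 and 21 in knockdown. Its posterior side held 2, 1 and 6 peaks in control and 4 in each knockdown library. In HOXD most peaks lay on the posterior side, with 2, 4 and 4 in control and 10, 9 and 7 in knockdown. Its anterior side held 1 peak in each library except knockdown replicate 1, which had 2. HOXC held 1, 0 and 2 anterior peaks in control and 4, 4 and 3 in knockdown, and 0 to 2 posterior peaks in any library.

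Of the 8 sides, 6 had a mean of at least 2 peaks. The knockdown libraries lay above all control libraries in 4 of these: posterior HOXA, anterior HOXB, anterior HOXC and posterior HOXD. They lay below in 0. Of all 100 kb windows 44.4% were apart and higher and 0.327% apart and lower. As a share of the list, 1 side passed the test among 13445 windows, of which 1.63% were called higher and 4.36% lower. It was posterior HOXA, with a log2 change of 1.10 ± 0.31 (SE; limma adjusted p = 0.0487), higher in 3 of 3 knockdown libraries in peak number. The median change over these windows was -0.07. This call lies close to the threshold. It was lost without control replicate 1 or 2 (adjusted p = 0.0565 and 0.102) and without knockdown replicate 1, 2 or 3 (adjusted p = 0.214, 0.151 and 0.0624), and the region had too few peaks for the test in lists of equal length. Without scaling to the list total 4 of 6 sides were called higher, beside 43.3% of 100 kb windows. The anterior side of HOXA had a log2 change of -1.07 ± 0.54 (SE; limma adjusted p = 0.216) and the posterior side of HOXD one of 0.47 ± 0.24 (SE; limma adjusted p = 0.234). With lists of equal length the anterior side of HOXB was lower in all 3 knockdown libraries, at 10.3 ± 2.08 peaks in control and 5.67 ± 0.577 in knockdown (± SD, 3 libraries per group), where 7.51% of 100 kb windows were lower and 6.79% higher. Its log2 change of share was then -0.80 ± 0.18 (SE; limma adjusted p = 0.119).

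The posterior side took 34.8 ± 6.6% of the HOX peaks of a library in control and 44.7 ± 4.55% in knockdown (± SD over 3 libraries per group; two-sided p = 0.2 by exact permutation). The difference of 9.91 points was 15.5 with lists of equal length, 3.61 with the stronger 50% of each list and 6.50 without control replicate 1. In HOXA the share was 47.2 ± 24.1% against 83.1 ± 7.96% (± SD over 3 libraries per group; two-sided p = 0.2 by exact permutation). Control replicate 3, at 75%, equalled the lowest knockdown library. The difference of 35.9 points was 50 with lists of equal length and 0 with the stronger 50%. Both rest on few peaks. With lists of equal length HOXA held 6, 3 and 2 peaks in control and 2, 1 and 3 in knockdown. In the stronger 50% all HOXA peaks kept were posterior in both groups, so the share could not differ. In HOXD the share was 75.6 ± 7.7% against 86.9 ± 3.37% (± SD over 3 libraries per group; two-sided p = 0.1 by exact permutation). The difference of 11.4 points was 8.33 with lists of equal length (two-sided p = 0.9 by exact permutation), 18.3 with the stronger 50% and 6.94 without control replicate 1. HOXB had 17.6 ± 8.56% of its peaks in the posterior side in control and 16.0 ± 0.641% in knockdown (± SD, 3 libraries per group), a difference smaller than the control spread.

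**Figure D3:**
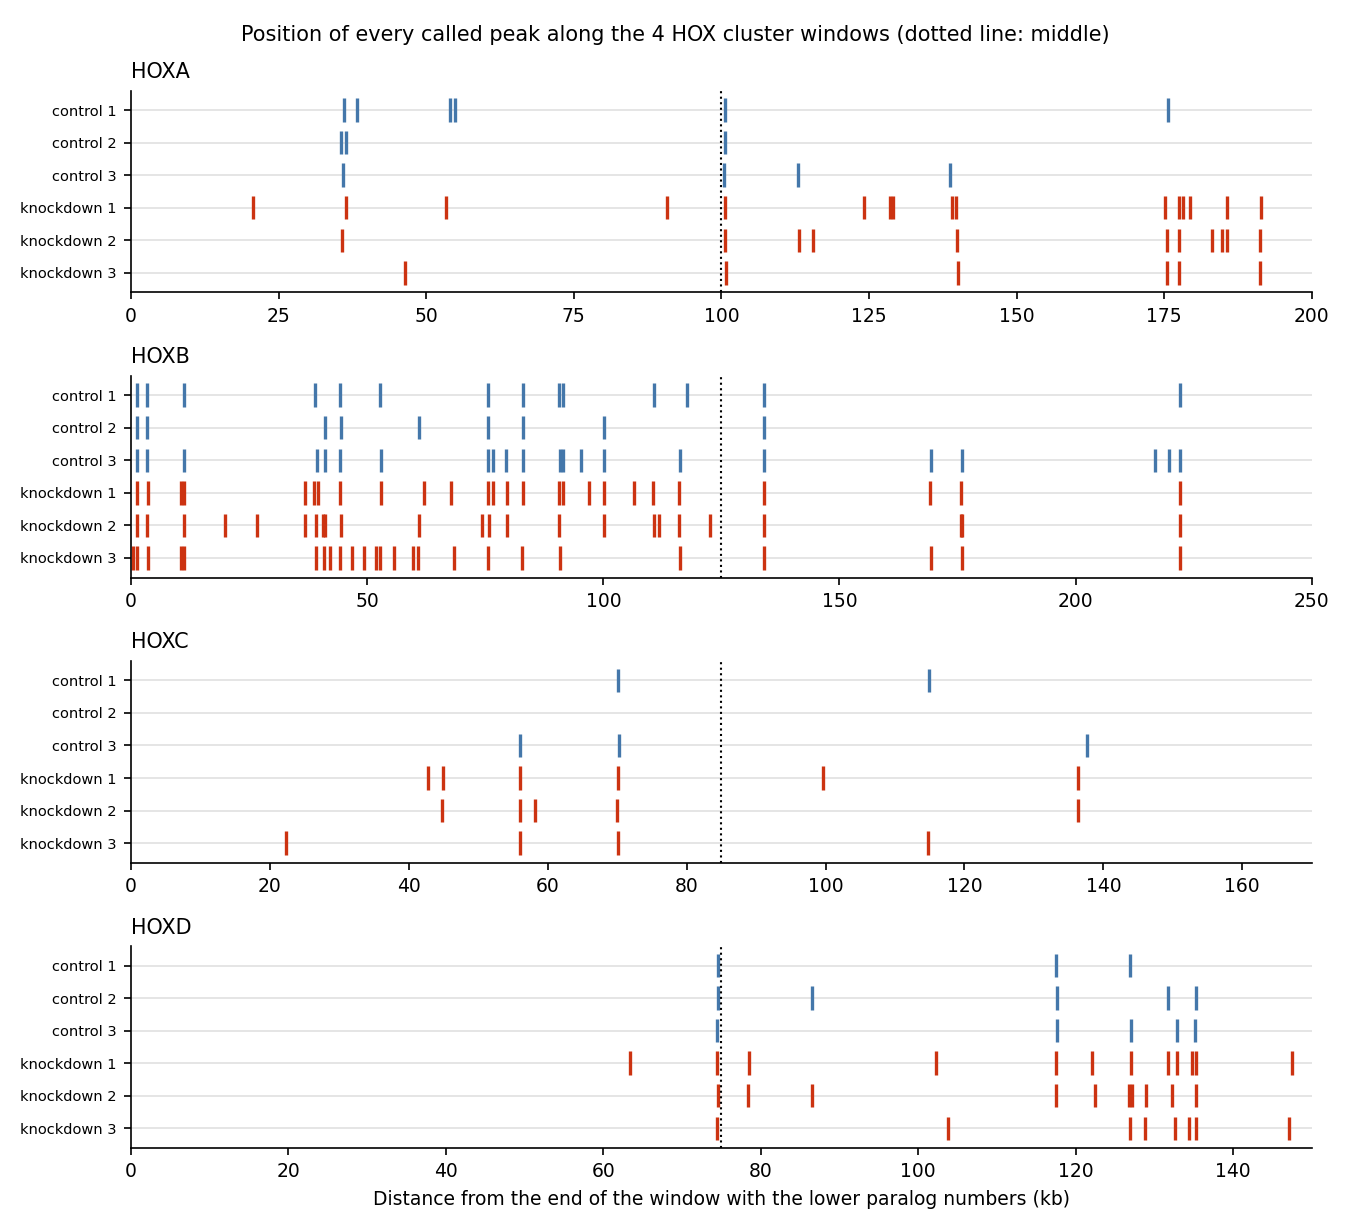
Every called peak as a tick, by its distance from the anterior end of the window (x axis, kb) in each library (rows), with control in blue and knockdown in red. The dotted line is the middle of the window. The knockdown rows of HOXA show ticks at 175.4, 177.5 and 191.3 kb in all 3 libraries, and no library has a peak in the first 63.3 kb of HOXD.

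Peaks were also counted in the first and last 50 kb of each window, stretches chosen after values were seen, so these counts are a description only. How many 50 kb windows of the genome lay apart between the groups was not counted. Of 100 kb windows with a mean of at least 2 peaks, 44.4% were apart and higher in knockdown. The last 50 kb of HOXA, on the HOXA13 and EVX1 side, held 1, 0 and 0 peaks in control and 6, 6 and 3 in knockdown. Whether EVX1 itself lies within that stretch was not analysed here. The last 50 kb of HOXD, on the HOXD13 and EVX2 side, held 2, 3 and 4 peaks in control and 9, 7 and 7 in knockdown. The first 50 kb of HOXB, on the HOXB1 side, held 5, 4 and 6 peaks in control and 8, 10 and 11 in knockdown. The first 50 kb of HOXC held no peak in control and 2, 1 and 1 in knockdown. The other 4 ends showed no such difference. The first 50 kb of HOXA held 2, 2 and 1 peaks against 2, 1 and 1, the last 50 kb of HOXB 1, 0 and 3 against 1 in each, the last 50 kb of HOXC 0, 0 and 1 against 1, 1 and 0, and the first 50 kb of HOXD none in any library. In lists of equal length the last 50 kb of HOXA held 1, 0 and 0 peaks in control and 1 in each knockdown library, and that of HOXD 2, 3 and 3 against 3, 3 and 2. The first 50 kb of HOXB then held fewer peaks in knockdown, 2, 3 and 2 against 5, 4 and 4.

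Long stretches of each cluster had no peak in any library. In HOXD the first 63.3 kb from the anterior end were free of peaks. In HOXA 35.55 kb were free at chr7:27154979-27190528 and 34.9 kb at chr7:27240148-27275025. In HOXB the 2 longest free stretches, of 40.6 and 34.9 kb, both lay on the posterior side. In HOXC 32.3 kb at the posterior end and 29.1 kb between 70.5 and 99.5 kb from the anterior end were free. In HOXB the longest was 40.6 kb in control and 45.8 kb in knockdown. In HOXC the longest was 56.0 kb in control and 33.5 kb in knockdown.

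Sites in the clusters were called by few libraries. Of the 97 sites, 50 (51.5%) were called by a single library, against 38.3% of all merged sites, and 7 (7.22%) by all 6, against 18.2%. Of the single-library sites, 41 belonged to a knockdown library and 9 to a control library. Over the whole genome these numbers were 44829 and 15520, so most single-library sites were of knockdown there too. Knockdown replicate 1 alone accounted for 19 of the 50, knockdown replicate 3 for 13 and knockdown replicate 2 for 9. Of the 60349 single-library sites of the genome, these 3 libraries accounted for 23081, 8755 and 12993. HOX sites had a median width of 248 bp, against 294 bp for all merged sites.

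**Figure D4:**
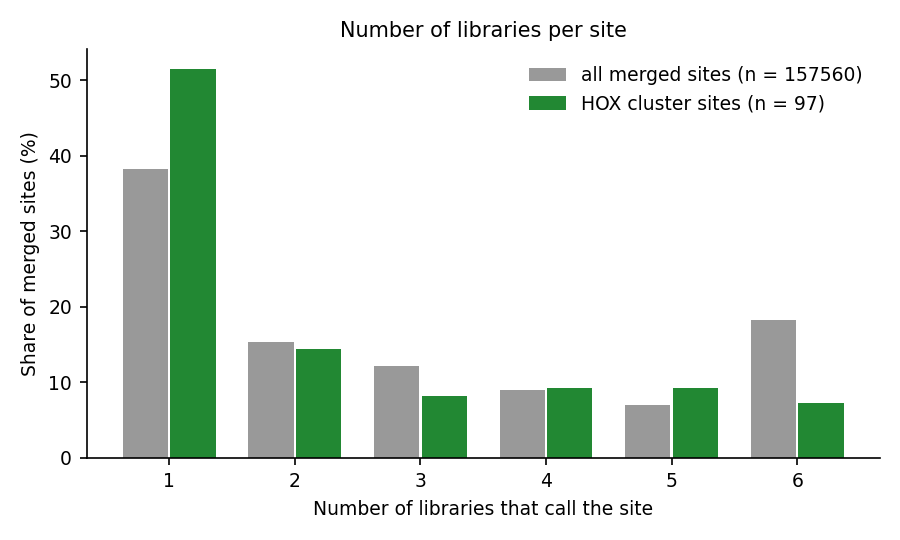
Share of merged sites (y axis, %) by the number of libraries that call them (x axis, 1 to 6), for all 157560 sites (grey) and the 97 HOX sites (green). The share called by 1 library is 51.5% for HOX sites and 38.3% for all sites, and that called by all 6 is 7.22% and 18.2%.

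The 7 sites shared by all libraries were 5 in HOXB and 1 each in HOXA and HOXD. The HOXA site, chr7:27200114-27201014, lay 100.6 kb from the anterior end, just inside the posterior side. It covered 304, 350 and 743 bp in the control libraries and 541, 467 and 584 bp in the knockdown libraries, so its groups overlapped. The HOXD site, chr2:177005266-177005778, lay 74.5 kb from the anterior end, just inside the anterior side, and covered 317, 260 and 433 bp in control and 513, 398 and 356 bp in knockdown. In HOXB the widest shared site and that of highest score were the same, chr17:46580737-46581662, 1.2 kb inside the anterior edge of the window. It covered 580, 586 and 637 bp in control and 915, 862 and 828 bp in knockdown. A neighbouring shared site, chr17:46583206-46583811, covered 254, 279 and 287 bp against 557, 486 and 546 bp. Whether these sites lie in a gene, exon or intron was not analysed here.

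Peaks were wider in knockdown at shared sites over the whole genome, with a median log2 change of 0.47 in covered bases when libraries were not centred. After centring each library on its median over the 28749 sites of all 6 libraries, 0.0765% of sites were called wider and 0.111% narrower (limma, adjusted p under 0.05). None of the 7 HOX sites was called, and 0 of 7 had an unadjusted p under 0.05. The log2 change was then -0.01 ± 0.17 (SE; limma adjusted p = 0.978) at chr17:46580737-46581662. At chr17:46583206-46583811 it was 0.41 ± 0.23 (SE; limma adjusted p = 0.358). Without centring, chr17:46583206-46583811 was called wider, with a log2 change of 0.95 ± 0.22 (SE; limma adjusted p = 0.0352), the sole HOX site so called. In that setting 12.5% of the 28749 sites were called wider.

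Few HOX sites belonged to every library of 1 group alone. In all 3 knockdown libraries and no control library there were 3 sites (3.09% of 97), against 7.72% of all merged sites. All 3 lay in the posterior side of HOXA: chr7:27277396-27277674, chr7:27239692-27240147 and chr7:27291011-27291534. The first covered 208, 208 and 279 bp in the knockdown libraries, at score percentiles of 52, 58.3 and 31.2 within their own lists. The second covered 249, 161 and 255 bp, at percentiles of 52, 20.5 and 17.8, and the third 313, 131 and 294 bp, at 23.2, 14.5 and 24.7. All 3 thus ranked in the middle or lower part of their lists, and none of them met the condition in lists of equal length. Where 2 of 3 knockdown libraries sufficed there were 11 sites (11.3%), against 19.2% of all merged sites. Near the first of the 3, at chr7:27275026-27275814, a site was called in all 3 knockdown libraries (348, 784 and 693 bp) and in control replicate 1 alone (251 bp).

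No site was called in all 3 control libraries and no knockdown library, where 0.131% of all merged sites were. The nearest to it, named after its values were seen, was chr7:27135524-27136171 in the anterior side of HOXA. It was called in all 3 control libraries, with 211, 150 and 437 bp, and in knockdown replicate 2 alone, with 393 bp.

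Between these extremes stood 12 sites called in all 3 knockdown libraries and in 1 or 2 control libraries, 12.4% of HOX sites against 14.1% of all merged sites. Of the 12, 11 were missing from control replicate 2 and 11 were present in control replicate 3, counts that were not made for all merged sites. In HOXC the 2 sites of this kind were chr12:54399537-54400181, called in 5 libraries, and chr12:54413863-54414173, called in 4. They were the sole HOXC sites in all 3 knockdown libraries, and HOXC had no site in all 6. The former covered 153, 0 and 501 bp in control and 372, 348 and 184 bp in knockdown. In HOXD chr2:176944428-176944932, on the HOXD13 and EVX2 side, covered 0, 369 and 207 bp in control and 468, 462 and 467 bp in knockdown, and chr2:176952780-176953286 covered 366, 0 and 357 bp against 485, 362 and 494 bp.

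Most HOX peaks ranked in the lower part of every list by score. The score is the value that the authors' peak caller gave each peak, and it served to order the peaks of 1 list, in which a percentile of 50 is the middle. The median percentile of HOX peaks was 27.7, 37.5 and 42.6 in the control libraries and 34.8, 31.9 and 24.7 in the knockdown libraries. Below the middle of its list lay 20 of 25, 10 of 17 and 20 of 34 peaks in control and 37 of 60, 35 of 50 and 31 of 43 in knockdown. The highest HOX peak of every list was that at chr17:46580737-46581662 of HOXB, at percentiles of 93.4, 94.8 and 98.8 in control and 99.0, 98.5 and 99.1 in knockdown. The second of the shared HOXB sites, chr17:46583206-46583811, stood at 63.3, 57.4 and 82.6 in control and at 94.6, 91.2 and 86.7 in knockdown. Ranks from lists of different length are not comparable, so both sites were also ranked among the 28749 sites of all 6 libraries. There the former stood between 88.7 and 97.3, and the latter at 41.0, 30.8 and 60.2 in control and 78.6, 69.2 and 60.9 in knockdown. The shared HOXA site, chr7:27200114-27201014, went the other way, at 48.4, 30.8 and 23.1 in control and 14.1, 4.47 and 21.9 in knockdown. At the remaining shared HOX sites the groups overlapped in rank. How many shared sites of the genome were apart in rank was not counted. Outside HOXB no peak passed a percentile of 86.0, reached at the HOXD13 side of HOXD in knockdown replicate 3.

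**Figure D5:**
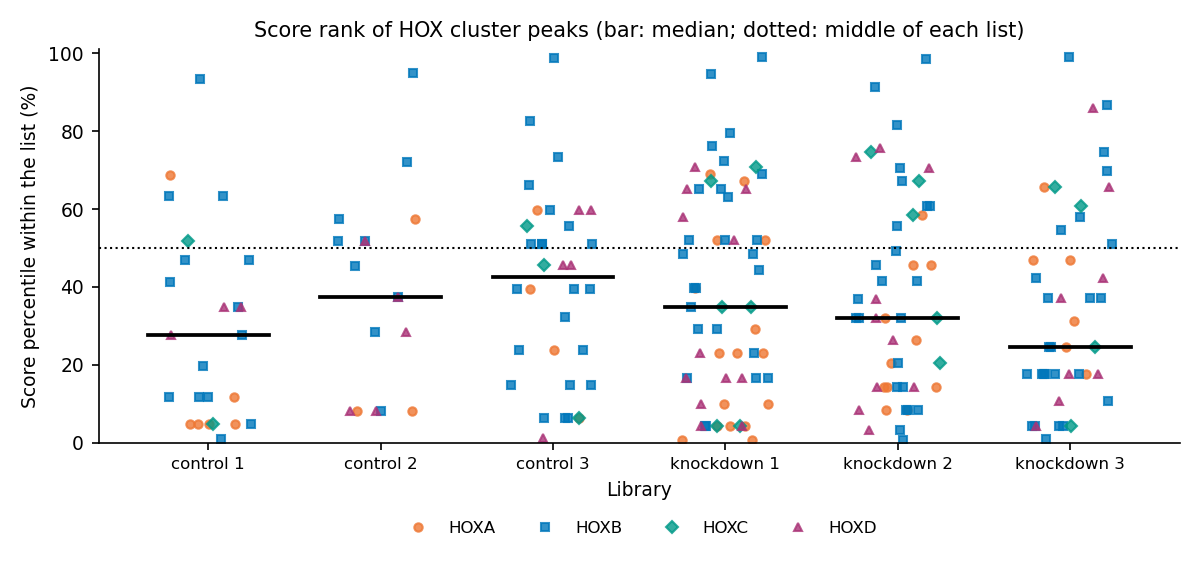
Score percentile (y axis, %) of every HOX peak within the list of its library (x axis), by cluster. The black bar is the median of a library, which lies between 24.7 and 42.6, and the dotted line the middle of each list. The points above 90 belong to 2 sites of HOXB, 1 of them in each library at 93.4 to 99.1 and the other in knockdown replicates 1 and 2 at 94.6 and 91.2.

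Relative to their surroundings the 4 clusters together did not differ beyond the spread. The 500 kb on either side of the 4 windows held 104, 106 and 130 peaks in control and 242, 209 and 173 in knockdown, a ratio of 1.84 beside 2.01 inside the windows. The log2 ratio of HOX to flanking peaks was -2.19 ± 0.367 in control and -2.02 ± 0.0309 in knockdown (± SD over 3 libraries per group; two-sided p = 0.8 by exact permutation). The difference of 0.17 was smaller than the control spread, and became -0.040 without control replicate 2. The flanks of HOXA held 4 to 8 peaks in control and those of HOXD 11 to 15. HOXC, the poorest cluster, lay between flanks of 49 to 64 peaks in control and 73 to 102 in knockdown. Its log2 ratio to the flanks was -4.34, -6.63 and -4.20 in control and -3.98, -4.10 and -4.03 in knockdown (two-sided p = 0.1 by exact permutation). The groups did not overlap, though how many other windows would show this was not counted. Control replicate 2, with no HOXC peak, lay far below the other libraries.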

How the data were processed

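ATAC-seq peak lists of 3 control and 3 ZNF436 knockdown libraries were used. The submitters' processing notes name the build hg19, bedtools 2.30.0 and Bowtie2 2.4.5, without roles. Each deposited list gives positions and an integer score per peak, the caller's own value, with a lowest value of 20 to 25. Peak names begin with MACS and name 1 library, so peaks appear to be called per library. Threshold, Tn5 shift and duplicate removal were not given in the sources used here. Depth is unknown. Members, windows and tests were chosen with earlier results of these data known.

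Peaks were assigned by midpoint. Peak numbers were turned into log2((peaks + 0.5) / list total × median total), for windows with a mean of at least 2 peaks, and fitted with limma 3.58.1 in R 4.3.3 (trend, robust). Calls had a Benjamini-Hochberg adjusted p under 0.05. The 4 clusters, of 150 to 250 kb, entered with the 200 kb tiles of the rest of the genome. The 8 sides, of 75 to 125 kb, entered with its 100 kb tiles. Lengths were not matched in these fits. Single values were compared by exact permutation tests over libraries, two-sided, with scipy 1.17.1. P-values measure the spread between differentiations. The limma fit and the site counting were tested on simulated data. Equal lists broke ties of score at random with a fixed seed. Widths were log2 covered bases centred on each library's median. Alternatives were lists of equal length, the stronger 50% of each list, other scalings, filters, pseudocounts and windows, a replicate block and leaving out each library. Named sites were, per cluster, the widest and the highest ranked shared site and all sites of 1 group only; others are described for their position or values and were chosen after these were seen. Gene order came from RefSeq (GRCh38.p14). Peaks near gene starts, cell type markers and sequences need hg19 and were not analysed here.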

Additional observations from a re-analysis of the deposited data

How the results depend on the processing

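Against a HOX peak ratio of 2.01 and a covered base ratio of 2.37, leaving out 1 library gave 1.73 to 2.43 and 2.08 to 2.98, and equal lists gave 0.762 for peaks. By cluster, equal lists also gave peak ratios of 0.545 (HOXA), 0.676 (HOXB) and 0.909 (HOXD) and a covered base ratio of 0.792 (HOXA). The difference of the HOX to flank ratio was -0.39 with equal lists and -0.040 (without control replicate 2) to 0.30 with 1 library left out. The difference in posterior share of HOXB, -1.54 points, was 16.3 with equal lists, 1.32 by bases and -4.76 to 3.32 with 1 library left out, and that of HOXC was 11.1 with the stronger 50% of each list.

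Sites called only in knockdown numbered 3, and 0 with equal lists, 11 where 2 of 3 libraries sufficed (19.2% of all merged sites met this) and 3 to 9 with 1 library left out (7 without control replicate 3, 9 without knockdown replicate 3). Those called only in control numbered 0, and 1 with equal lists and 0 to 1 with 1 library left out. With a library left out, the condition asks for fewer libraries.

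Clusters called numbered 0, and 4 without scaling (61.4% of all 200 kb windows), which follows list length. Sides called numbered 1, and 4 without scaling (43.3% of all 100 kb windows) and 0 with equal lists, with the stronger 50% of each list, with a mean of at least 5 peaks and with no filter; they were 0 to 1 with 1 library left out. For posterior HOXA the adjusted p in limma was 0.0487, and ran from 0.00677 without scaling to 0.214 without knockdown replicate 1. Shared sites called wider or narrower numbered 0, and 1 without centring. Changes of share that turned sign were those of HOXA (-0.71) and HOXD (-0.12) with equal lists. That of HOXB, -0.02, became 0.066 with the stronger 50%, 0.81 without scaling, 0.23 by covered bases and -0.29 to 0.16 with 1 library left out. That of anterior HOXB, 0.00, became -0.80 with equal lists, -0.023 with a pseudocount of 1 and -0.20 to 0.12 with 1 library left out. That of posterior HOXB, -0.20, became 0.41 with equal lists, 0.63 without scaling and -0.63 to 0.26 with 1 library left out. The cause was not tested. HOXC and both sides of HOXA had too few peaks to be fitted with equal lists, and HOXC gave no blocked ratio since control replicate 2 had no peak.

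With the replicate number as a block, the peak ratio was 2.07, the covered base ratio 2.45, and posterior HOXA stayed under the threshold (limma adjusted p = 0.0379). Deviations from the group means correlated by -0.00, 0.05 and 0.02 between equal numbers and by -0.06 to 0.04 between different numbers. The highest value was of equal number, that of control and knockdown replicate 2. Control replicates 1 and 3 correlated best with a knockdown library of another number. All values were small, so the numbers give no clear sign of pairing. Depth is unknown and limits every count, and windows with few peaks limit every share.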
